A study of Mus musculus with 6 samples.

Results

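Slc28a2b, its paralogue Slc28a2 and the pseudogene Bambi-ps1 lie side by side on mouse chromosome 2, and were examined together with 4 nucleoside transporter genes on other chromosomes, Slc28a3, Slc29a1, Slc29a2 and Slc29a3. These 7 genes are among the 78275 genes of the count table and were found in it by their symbols. The chromosome 2 genes were chosen with their levels in BIT and WT mice known. Their values in that comparison are therefore given as a description, and nothing is read from tests of them. The other 4 genes were added for their family. Of the 7 genes, 6 had counts and the same 6 passed the filter on low counts, whereas Slc28a3 had 0 counts in all 6 libraries.

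The RNA came from CD4-CD8+ TCRβhigh T cells of 3 WT and 3 BIT mice, all on the C57BL/6 background, with 1 library per mouse. BIT mice are homozygous for an allele in which the cDNA of Psmb11, which encodes the thymoproteasome subunit β5t, sits at the translation start of Psmb8, which encodes the immunoproteasome subunit β5i, so that β5t is made under the control of the Psmb8 gene. The study describes a single BIT line unless it says otherwise, and WT mice carry neither change. All mice are labelled as male and 9 to 10 weeks old, with cells sorted to above 98% purity, and the labels name lymph nodes as the source in one field and lymph nodes with spleens in another. The comparison asks how the transcriptome of mature CD8+ T cells differs when β5t replaces β5i.

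Nucleosides such as adenosine, guanosine, uridine and thymidine are the building blocks of nucleotides and cannot cross a membrane unaided. The SLC28 family of concentrative transporters moves them into cells together with sodium, and Slc28a2 encodes the member that prefers purine nucleosides and also takes uridine. The SLC29 family of equilibrative transporters carries them along their own gradient, through the plasma membrane in the case of Slc29a1 and Slc29a2 and through the membranes of lysosomes in the case of Slc29a3. Lymphocytes recycle nucleosides through salvage enzymes, and adenosine outside the cell is also a signal that T cells read through adenosine receptors.

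On GRCm39, Slc28a2 (ENSMUSG00000027219.14) spans chr2:122256870-122291632 on the plus strand, with 19 exons in its canonical transcript. Slc28a2b (ENSMUSG00000079071.3) spans chr2:122315422-122358521 on the same strand, with 18 exons. Bambi-ps1 (ENSMUSG00000081219.2), a processed pseudogene of 1 exon named after Bambi, lies between them on the minus strand at chr2:122297416-122298007. It begins 5.78 kb after the end of Slc28a2 and ends 17.41 kb before the start of Slc28a2b. No annotated gene overlaps Bambi-ps1 or Slc28a2b, and an unprocessed pseudogene with 0 counts in every library, Gm14086, overlaps Slc28a2. The other members lie at chr13:58693213-58758691 (Slc28a3, minus strand), chr17:45896125-45910733 (Slc29a1, minus strand), chr19:5073562-5082385 (Slc29a2, plus strand) and chr10:60547851-60588636 (Slc29a3, minus strand).

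The coding sequences of Slc28a2 and Slc28a2b are both 1980 bases long, and 1872 of these bases (94.5%) are identical position by position. The likeness is uneven along the sequence, which matters here because RSEM, the program that made the counts, divides a read that matches both genes between them. Of 977 windows of 60 coding bases that lie in a single exon of each gene, 208 were identical in both genes, the median window had 59 identical bases and the least alike had 32. Of the 100-base stretches of the canonical Slc28a2b transcript, 784 of 3641 (21.5%) also occur in the annotated transcripts of Slc28a2, read on either strand. The longest run in common on the same strand is 295 bases. A window of each kind is shown, from the transcript strand, with the bases that differ between both genes in capitals. The first of them, exon 5 of Slc28a2 (chr2:122277367-122277426) and exon 4 of Slc28a2b (chr2:122323816-122323875), cannot tell the genes apart, whereas the next, exon 6 of Slc28a2 (chr2:122278370-122278429) and exon 5 of Slc28a2b (chr2:122324817-122324876), differs at 28 of its 60 positions.
Slc28a2, identical window: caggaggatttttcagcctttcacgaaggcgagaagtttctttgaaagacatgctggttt
Slc28a2b, identical window: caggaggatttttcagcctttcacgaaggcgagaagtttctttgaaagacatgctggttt
Slc28a2, least alike window: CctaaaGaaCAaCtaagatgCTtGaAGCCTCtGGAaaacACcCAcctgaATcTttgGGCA
Slc28a2b, least alike window: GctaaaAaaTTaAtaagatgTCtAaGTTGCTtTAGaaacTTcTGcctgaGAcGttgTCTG

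The likeness extends past the annotated start of Slc28a2b. The 244 bases before it (chr2:122315178-122315421) align with 250 bases of Slc28a2 (chr2:122270085-122270334), with 229 of 251 alignment columns identical (91.2%). In Slc28a2 this stretch ends directly before exon 2 of the canonical transcript, not before its exon 1. Coding transcripts of Slc28a2 have 2 annotated starts, at positions 122270228 and 122256870, which are 13358 bases apart. The last 30 bases of the aligned stretch are shown because they join the exon in one gene and the annotated start in the other, with the single differing base in capitals.
Slc28a2, chr2:122270305-122270334: gcccaatatatgCtttctcccattactcag
Slc28a2b, chr2:122315392-122315421: gcccaatatatgGtttctcccattactcag

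Total estimated counts were 39944710 to 52922675 in the WT libraries and 37467678 to 44755674 in the BIT libraries, so that a gene with 0 counts may still have a level of up to 0.0567 to 0.0801 CPM (the count of a gene per 1000000 counts of its library), a limit that covers counting error only. The edited locus followed the labels, as Psmb8 had 10790, 10345 and 8024 counts in WT and 73, 59 and 60 in BIT mice, and Psmb11 had 0 in each WT library and 1926, 1754 and 1226 in the BIT libraries. The library of WT replicate 3 went against its sex label, with 66626 counts of Xist and 0 counts of Ddx3y, Kdm5d, Uty and Eif2s3y. Each of these 4 Y-linked genes had counts in the other 5 libraries. Xist had 125 counts in BIT replicate 3 and 2 to 9 in the libraries of replicates 1 and 2. Replicate 3 also stood apart in both genotypes, with scores on the first principal component of 54.6 in WT and 28.6 in BIT mice against -36.5 to -3.31 in the other 4 libraries. Markers of CD8 T cells (Cd3e, Cd3d, Trac, Cd8a and Cd8b1) summed to between 3530 and 3940 CPM in all libraries, whereas summed markers reached at most 4.51 CPM for CD4 T cells, 30.6 for B cells, 38 for myeloid cells, 2.32 for NK cells and 35.1 for red cells.

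Slc28a2b was the member with the widest spread among mice. Its estimated counts were 1071, 948 and 2315 in WT replicates 1 to 3 and 337, 378 and 645 in BIT replicates 1 to 3. Scaled to the library totals, these were 20.2, 18.7 and 58.0 CPM in WT and 7.54, 8.98 and 17.2 CPM in BIT mice. WT replicate 3 was far above every other library and BIT replicate 3 was the highest of its genotype, and the groups did not overlap, although BIT replicate 3 was near WT replicates 1 and 2. The mean level was 32.3 ± 22.2 CPM in WT and 11.2 ± 5.22 CPM in BIT mice (SD, n = 3 each), which is 34.8% of the WT mean. The fitted log2 difference, BIT minus WT on quantile-normalized values, was -1.39 ± 0.45 (SE). It was -0.94 without WT replicate 3 and -1.25 with both replicate 3 libraries left out. In sorted cells analysed in bulk, fewer cells that express a gene and less RNA of it per cell cannot be told apart.

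Bambi-ps1 is a processed copy of Bambi, a gene on chromosome 18 that encodes a decoy receptor for TGF-β and BMP ligands. It had 192, 203 and 180 counts in WT and 60, 70 and 74 counts in BIT mice, or 3.63, 4.01 and 4.51 CPM against 1.34, 1.66 and 1.98 CPM. The groups were far apart. Replicate 3 was the highest library of each genotype in CPM, but not on quantile-normalized values. Means were 4.05 ± 0.44 and 1.66 ± 0.317 CPM (SD, n = 3 each), so that BIT mice had 41.0% of the WT level. The fitted log2 difference was -1.21 ± 0.20 (SE), and -1.28 without the replicate 3 libraries. Bambi itself had 10 to 31 counts in each library, with a log2 difference of 0.18 (adjusted p = 0.941, limma-voom with Benjamini-Hochberg adjustment over all genes tested). None of the 493 stretches of 100 bases of Bambi-ps1 occurs in the annotated transcripts of Bambi. Of its 563 stretches of 30 bases 20 do, and the longest run in common is 46 bases. All values of both genes were whole numbers. Bambi-ps1 and Slc28a2b are annotated on opposite strands, and the strand setting of the counting is not given in the sources used here.

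Slc28a2 was the most abundant member in counts, with 3014, 2726 and 2828 in WT and 2203, 2381 and 2162 in BIT mice. Its levels were 57.0, 53.9 and 70.8 CPM in WT and 49.2, 56.6 and 57.7 CPM in BIT mice. The groups overlapped, and WT replicate 3 was the highest library, though by less than for Slc28a2b. Means were 60.6 ± 9.0 and 54.5 ± 4.62 CPM (SD, n = 3 each), so that BIT mice were at 90.0% of the WT mean. The fitted log2 difference was -0.20 ± 0.097 (SE), and -0.13 without the replicate 3 libraries. Among the 16105 genes tested, 147 had a lower difference than Slc28a2b, 225 a lower one than Bambi-ps1 and 3229 a lower one than Slc28a2. These ranks are a description only, because the genes were chosen with their levels in this comparison known.

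**Figure D1:**
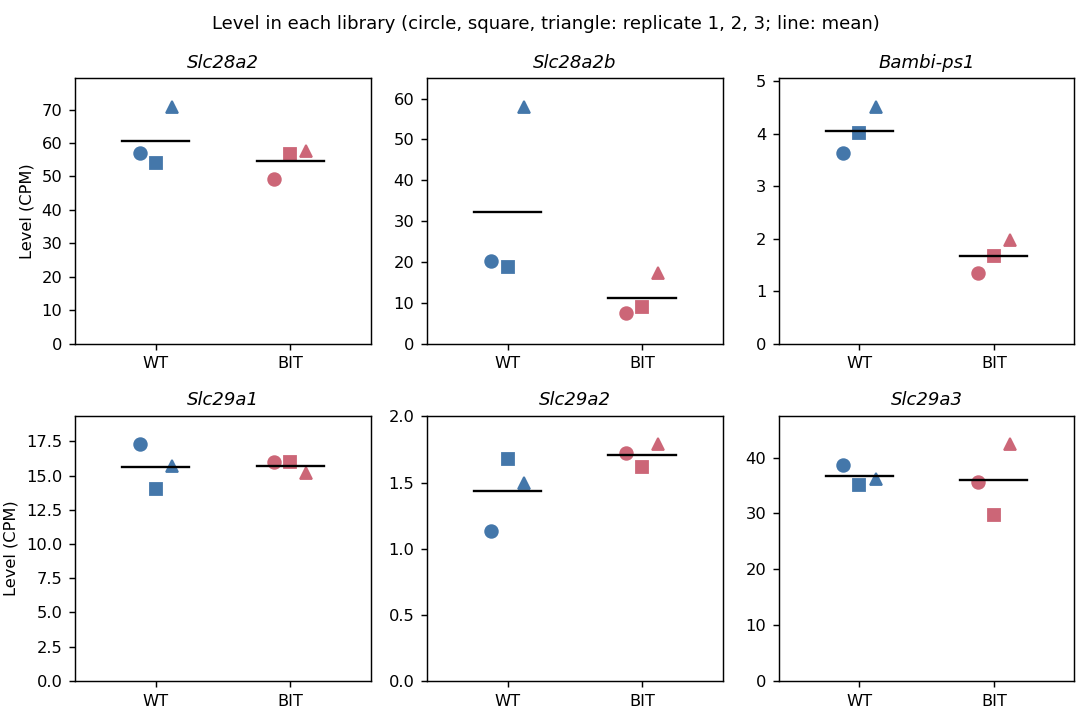
Level in CPM (linear axes from 0) of the 6 members with counts, each point being 1 library (circle, square and triangle for replicates 1, 2 and 3) and each line a group mean. For Slc28a2b and Bambi-ps1 every BIT point is below every WT point, with WT replicate 3 at 58.0 CPM of Slc28a2b. For the other 4 genes the groups overlap. Slc28a2b and Bambi-ps1 were chosen with these values known, so nothing is read from this contrast.

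With limma-voom, 22 of the 16105 genes tested had an adjusted p below 0.05, which is 0.137% of them, and 14 did with edgeR and 125 with DESeq2. None of the 3 chromosome 2 genes was among the 22, and 2 of the 3 had an unadjusted p below 0.05. DESeq2 called 1 of the 3, Bambi-ps1, and edgeR called 0. Since these genes were chosen on this comparison, nothing is read from these counts.

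Because reads from the stretches alike in both genes can be assigned to either, the pair was also viewed as a whole. The values of Slc28a2 and Slc28a2b were not whole numbers in any of the 6 libraries, but their sums were whole in all 6, to within 0.02 counts. These sums were 4085, 3674 and 5143 counts in WT and 2540, 2759 and 2807 in BIT mice. Scaled by depth, the pair was at 77.2, 72.7 and 129 CPM in WT and 56.8, 65.6 and 74.9 CPM in BIT mice, and BIT replicate 3 overlapped the WT group. Fitted as a single gene, the sum had a log2 difference of -0.51 ± 0.18 (SE). Slc28a2b took 26.2%, 25.8% and 45.0% of the pair's counts in WT and 13.3%, 13.7% and 23.0% in BIT mice. The share was thus lower in each BIT library than in any WT library, with means of 16.7% ± 5.49 against 32.3% ± 11 (SD, n = 3 each), and in both genotypes it was highest in replicate 3.

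**Figure D2:**
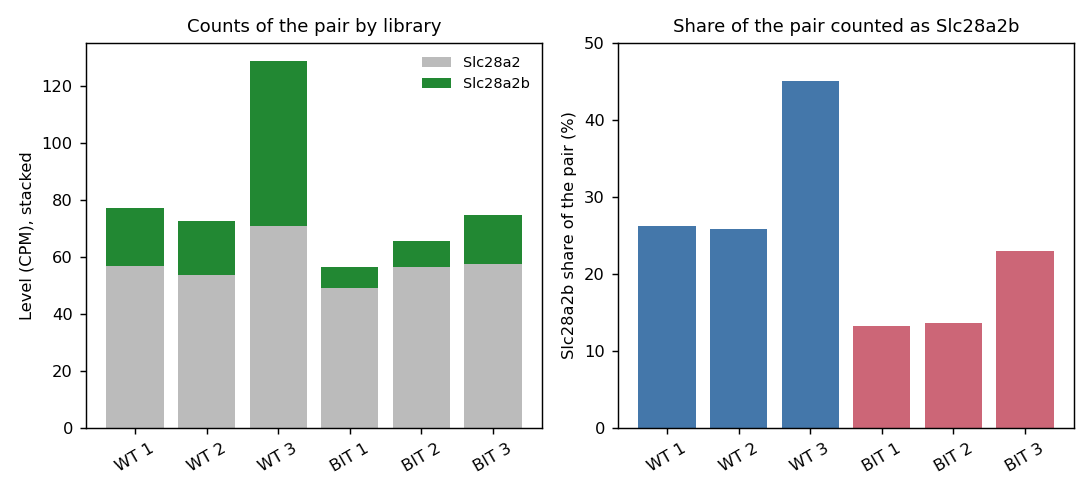
Left, level of Slc28a2 (grey) and Slc28a2b (green) in CPM, stacked, in each library. Right, share of the summed counts of the pair assigned to Slc28a2b, in percent, with WT in blue and BIT in red. The grey parts run from 49.2 to 70.8 CPM, whereas the green share runs from 13.3% in BIT replicate 1 to 45.0% in WT replicate 3.

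The spread of Slc28a2b followed the replicate 3 libraries in both genotypes. On quantile-normalized log2 values, replicate 3 was above the mean of replicates 1 and 2 by 1.5 in WT and by 0.93 in BIT mice. Slc28a2b was 1 of 52 tested genes with differences at least this high in both genotypes. The same differences were 0.25 and 0.047 for Slc28a2 and -0.12 and -0.080 for Bambi-ps1. The within-genotype SD of Slc28a2b was 0.721 on the log2 scale, against 0.118 for Slc28a2, 0.0994 for Bambi-ps1 and a median of 0.212 over all genes tested. Of the 6313 genes at or above the level of Slc28a2b, 28 had an SD at least as large, Slc28a2b included. Summed markers of myeloid cells were also highest in WT replicate 3, at 38 CPM against 10.9 to 18.5 in the other libraries. In that library Itgax was at 20.6 CPM (2.91 to 6.03 elsewhere), Itgam at 4.93 (0.964 to 1.39 elsewhere) and Cd68 at 3.23 (0.88 to 1.96 elsewhere). Lyz2 at 4.06 and Csf1r at 5.18 were within the range of the other libraries. The part of these genes in the level of Slc28a2b was not tested.

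To see which genes had a pattern most like that of Slc28a2b, the tested genes were ordered by the root-mean-square difference between their log2 levels over the 6 libraries and those of Slc28a2b, each centred on its mean. The nearest was Zeb2, a transcription factor gene, at 0.239. It had 201, 262 and 726 counts in WT and 96, 94 and 151 counts in BIT mice. S100a4, which encodes a calcium-binding protein, was at 0.314, with 197, 326 and 897 counts in WT and 71, 91 and 178 counts in BIT mice. Both genes were thus highest in WT replicate 3 and, within BIT mice, in replicate 3. The other 3 of the nearest 5 were the lncRNA genes Gm64094 (0.311), Gm57172 (0.323) and Gm40481 (0.333), each with at most 100 counts in any library. For comparison, a gene at the same level in all libraries would be at 0.916. With 16105 genes tested, Bambi-ps1 was at 0.646, in rank 504, and Slc28a2 at 0.789, in rank 1755. Neither gene was among the nearest 5. Nothing else is read from their ranks, because the profiles include the difference between genotypes on which the chromosome 2 genes were chosen. Slc28a2 and Slc28a2b also share reads that are divided between them.

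**Figure D3:**
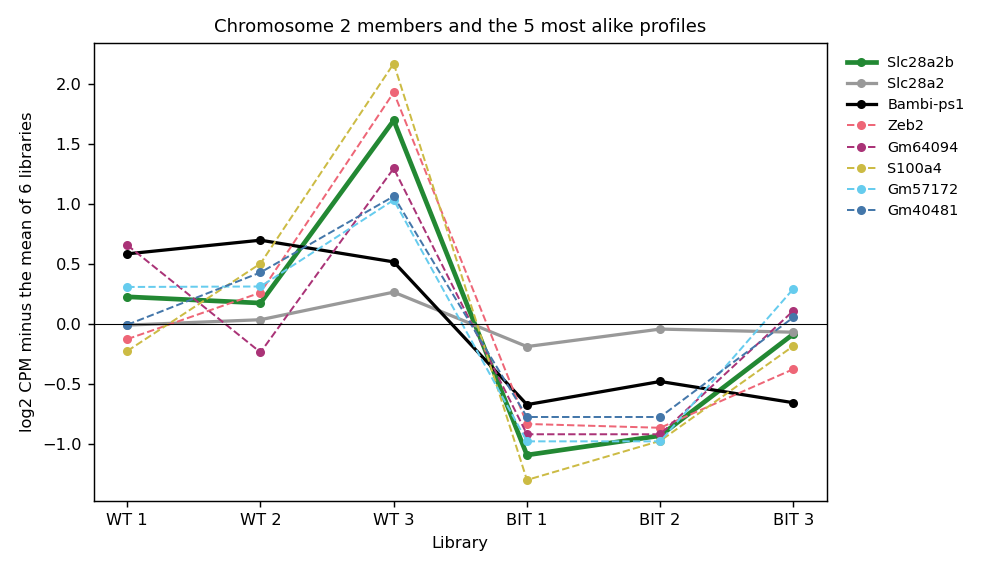
Quantile-normalized log2 CPM of each gene minus its mean over the 6 libraries, for the chromosome 2 members (solid lines) and the 5 genes with the most alike profiles (dashed lines). Slc28a2b, Zeb2 and S100a4 peak in WT replicate 3 and are lowest in BIT replicates 1 and 2, whereas Bambi-ps1 has a level step between genotypes and Slc28a2 is nearly flat.

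The genes around the locus were compared to see whether the low BIT values of Slc28a2b and Bambi-ps1 extended along the chromosome. Within 500 kb of Slc28a2b the annotation places 43 other genes, of which 23 had counts and 16 were tested. By limma-voom, 0 of the 16 were called, where 0.137% of all genes tested were, and 1, Gm75040, had an unadjusted p below 0.05, where 8.57% of all genes did (adjusted p from 0.547 to 0.893). These counts do not set the neighbours apart from the background. edgeR and DESeq2 also called 0. Fitted differences were above 0 for 5 genes and below 0 for 11, with a median of -0.21 against 0.01 over all genes tested. The nearest tested gene after Slc28a2b, Gatm, which encodes an enzyme of creatine synthesis, lies 66.4 kb away. It had 13, 25 and 31 counts in WT and 3, 14 and 10 counts in BIT mice, and its log2 difference was -0.92 (adjusted p = 0.681, limma-voom). The nearest tested gene before the cluster, the lncRNA gene Gm74665, had 29, 36 and 26 counts against 12, 9 and 39. Its log2 difference was -0.46 (adjusted p = 0.801, limma-voom).

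The largest absolute differences among the neighbours were those of genes with few counts. Gm75040 had 24, 21 and 28 counts in WT and 4, 2 and 19 counts in BIT mice, and a log2 difference of -1.34 (adjusted p = 0.547, limma-voom). Gm75635 was at -0.73 (adjusted p = 0.849) and Bloc1s6os, an antisense gene whose reads may come from Bloc1s6 if strand was not used, at -0.52 (adjusted p = 0.750). Sord, the sorbitol dehydrogenase gene, had 81, 72 and 82 counts in WT and 44, 30 and 50 counts in BIT mice. Its groups did not overlap in CPM, and its log2 difference was -0.59 (adjusted p = 0.592, limma-voom). Nor did those of Eif3j1, a gene with more counts that is named after its values were seen. It was at 67.2 to 69.5 CPM in WT and 60.8 to 65.3 CPM in BIT mice, with a log2 difference of -0.17 (adjusted p = 0.630, limma-voom). B2m, which encodes the light chain of MHC class I and lies 331.83 kb before Slc28a2b, was at 2870 to 3120 CPM in WT and 2480 to 3350 CPM in BIT mice. Its log2 difference was 0.14 (adjusted p = 0.766, limma-voom).

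**Figure D4:**
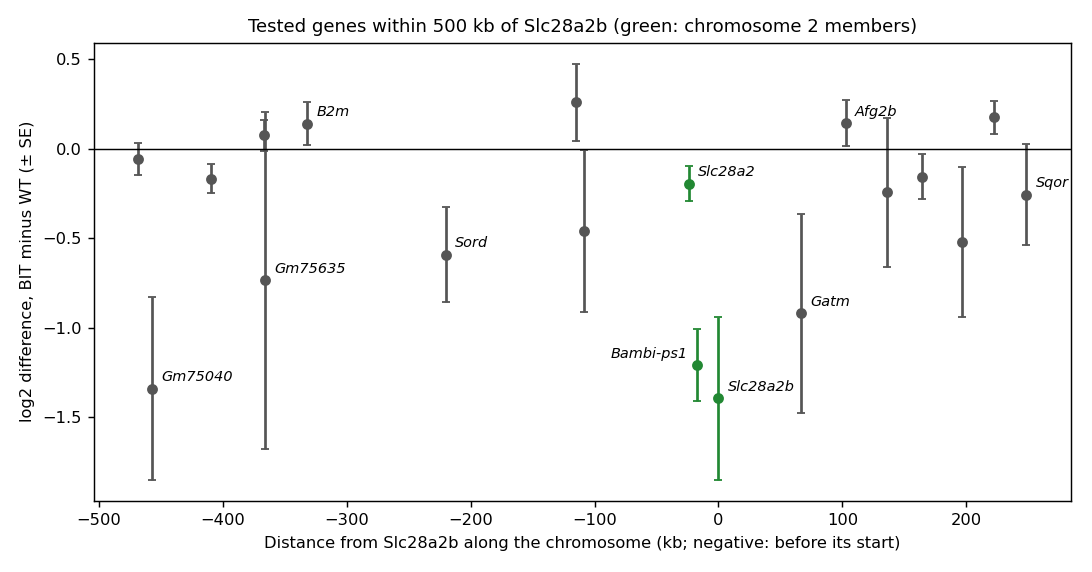
Fitted log2 difference, BIT minus WT, with its standard error, of the chromosome 2 members (green) and the 16 tested neighbours (grey), against the distance in kb from Slc28a2b along the chromosome. Slc28a2b at -1.39 and Bambi-ps1 at -1.21 lie below Slc28a2 at -0.20, and the lowest neighbours, Gm75040 at -1.34 and Gatm at -0.92, have bars wider than that of Slc28a2b.

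Of the 4 unlinked nucleoside transporters, 3 were tested and 0 were called by limma-voom, edgeR or DESeq2, and 0 had an unadjusted p below 0.05 by limma-voom. With 0.137% of all genes called and 8.57% at an unadjusted p below 0.05, a count of 0 among 3 genes says little about them, and the intervals of their differences are given instead. Slc29a1, the main equilibrative transporter of the plasma membrane, was at 17.3, 14.0 and 15.7 CPM in WT and 16.0, 16.0 and 15.2 CPM in BIT mice. The groups overlapped and their means were alike, at 15.7 ± 1.62 and 15.7 ± 0.418 CPM (SD, n = 3 each). The log2 difference was 0.02 with a 95% interval from -0.25 to 0.28 (adjusted p = 0.976, limma-voom).

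Slc29a2, an equilibrative transporter that also carries nucleobases, had only 60, 85 and 60 counts in WT and 77, 68 and 67 in BIT mice. These were 1.13, 1.68 and 1.5 CPM against 1.72, 1.62 and 1.79 CPM, with BIT replicate 2 within the WT range. Its log2 difference was 0.38 with a 95% interval from -0.25 to 1.00 (adjusted p = 0.726, limma-voom). Slc29a3, the lysosomal transporter, was at 38.7, 35.1 and 36.1 CPM in WT and 35.6, 29.7 and 42.4 CPM in BIT mice. Its BIT libraries lay on both sides of the WT libraries, and the log2 difference was -0.09 with a 95% interval from -0.36 to 0.19 (adjusted p = 0.863, limma-voom). By two-sided exact permutation tests on log2 CPM, whose smallest p for 3 mice against 3 is 0.1, p was 0.8 for Slc29a1, 0.2 for Slc29a2 and 0.8 for Slc29a3. With both replicate 3 libraries left out, the log2 differences were 0.03, 0.38 and -0.22 in the same order. The remaining members of both families, Slc28a1 and Slc29a4, had 0 counts and at most 3 counts per library.

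To compare the members with each other, CPM was divided by the length of the canonical transcript. In WT mice Slc28a2 was the highest, at a mean of 15.1 CPM per kb (range 13.4 to 17.6), followed by Slc28a2b at 8.64 (5.01 to 15.5), Slc29a1 at 7.15 (6.41 to 7.89), Slc29a3 at 6.89 (6.60 to 7.28) and Bambi-ps1 at 6.84 (6.13 to 7.61). Slc28a2 lay above Slc29a1, Slc29a3 and Bambi-ps1 without overlap. The range of Slc28a2b overlapped that of Slc28a2 through WT replicate 3 and also those of the other 3 genes, which overlapped each other. Slc29a2 followed without overlap at 0.471 (0.371 to 0.550), 14.5-fold below Bambi-ps1, and Slc28a3 was at 0. In BIT mice Slc28a2 stood 1.89-fold above Slc29a1 without overlap, at 13.6 (12.3 to 14.4) against 7.17 (6.95 to 7.29). Slc29a3 at 6.75 (5.59 to 7.98) overlapped Slc29a1 and stood 2.25-fold above Slc28a2b. Slc28a2b at 3.01 (2.01 to 4.60) and Bambi-ps1 at 2.80 (2.26 to 3.34) overlapped each other, and Slc29a2 at 0.559 (0.529 to 0.585) lay below them. Slc28a2b was below Slc29a1 and Slc29a3 in every BIT mouse and also in WT replicates 1 and 2, at 5.41 and 5.01 CPM per kb, and above them only in WT replicate 3, at 15.5, which alone put its WT mean above theirs.

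Enzymes and receptors that handle nucleosides were taken from a list of 44 genes, of which 35 had counts and 31 were tested. By limma-voom, 0 of the 31 were called in either direction, against 0.137% of all genes tested, and edgeR and DESeq2 called 0. Fitted differences were above 0 for 14 genes and below 0 for 17, with a median of -0.003 against 0.01 over all genes tested, and adjusted p from 0.511 to 0.999. An unadjusted p below 0.05 was reached by 2 of the 31, Xdh and Nt5e, against 8.57% of all genes tested, so that the list does not stand out from the background. Of the listed genes, Nt5e and Ada are named after their values were seen.

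Xdh, which encodes xanthine dehydrogenase, an enzyme of purine breakdown, was at 23.9, 19.1 and 25.9 CPM in WT and 28.7, 26.8 and 35.2 CPM in BIT mice. Each BIT library was above each WT library, and the log2 difference was 0.38 ± 0.12 (SE, adjusted p = 0.511, limma-voom). Nt5e encodes CD73, the surface enzyme that makes adenosine from AMP. It was at 47.9, 56.2 and 62.3 CPM in WT and 70.4, 70.1 and 76.1 CPM in BIT mice, also without overlap, and its log2 difference was 0.33 ± 0.11 (SE, adjusted p = 0.511, limma-voom). Overlap in CPM was likewise absent for Dguok, Aprt, Dctd and Ampd2, higher in BIT mice, and for Ada, lower in BIT mice. Only Gda and Dctd had larger positive differences than Xdh. Gda, which encodes guanine deaminase, was at log2 1.26 (adjusted p = 0.643, limma-voom), with 262 of its counts in BIT replicate 2 and at most 75 in any other library. Dctd, which encodes dCMP deaminase, was at log2 0.44 (adjusted p = 0.638). The adenosine receptor gene Adora2a, at log2 0.34 (adjusted p = 0.582), lay between Xdh and Nt5e. The largest negative differences were those of 2 nucleotidases that act inside the cell, Nt5c3b (log2 -0.34, adjusted p = 0.601) and Nt5c2 (log2 -0.30, adjusted p = 0.632), and of the AMP deaminase Ampd1 (log2 -0.29, adjusted p = 0.799).

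Per length, the levels of the list ranged widely, and those of the highest genes of each functional group are given as group means. Among the salvage kinases, mean CPM per kb was 17.0 in WT and 17.7 in BIT mice for Uck2, which phosphorylates uridine and cytidine, 16.8 and 18.2 for Dguok and 12.6 and 11.6 for Dck, which act on deoxynucleosides. Among the enzymes that join or free nucleobases it was 29.0 and 29.6 for Hprt1, 26.9 and 30.9 for Aprt and 17.5 and 18.6 for Mtap. Samhd1, which degrades deoxynucleotides, was at 85.2 and 106 CPM per kb, above Ampd2 at 5.89 and 6.50 and Xdh at 4.32 and 5.69. The nucleotidase Nt5c was at 102 and 92.8, with Nt5c3 at 20.0 and 20.5 and Nt5c3b at 19.1 and 15.2. On the cell surface, Dpp4, which binds adenosine deaminase, was at 37.1 and 35.8, and the enzymes that degrade extracellular nucleotides, Enpp1 at 1.1 and 1.02 and Entpd1 at 0.573 and 0.478, were near the lower end. Adora2a, which encodes an adenosine receptor found on T cells, was at 3.67 and 4.51 and was the only tested adenosine receptor of the 4 listed. None of these differences between genotypes passed the test.

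**Figure D5:**
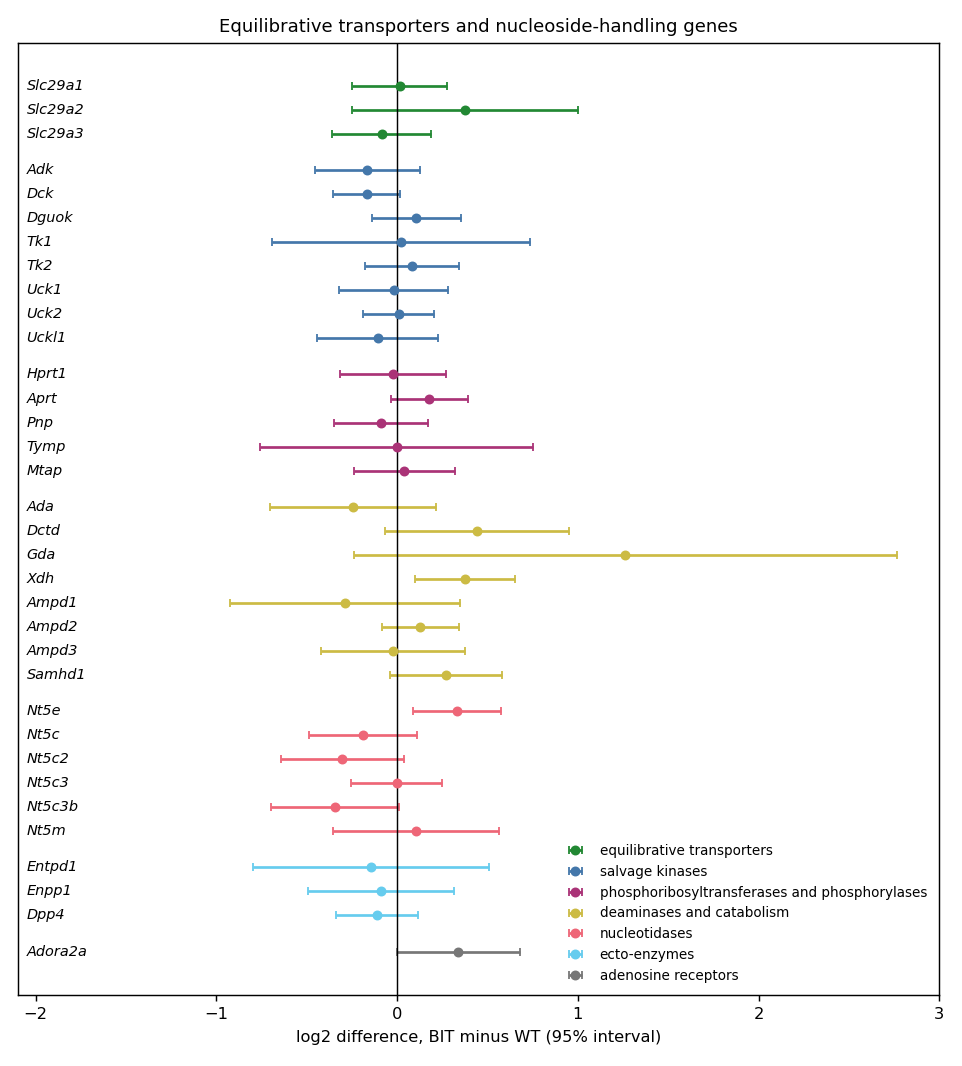
Fitted log2 difference, BIT minus WT, with its 95% interval, of the 3 tested equilibrative transporters and the 31 tested genes of the nucleoside list, coloured by functional group. The intervals of Xdh and Nt5e lie above 0 and those of the other genes include it, and 0 genes passed the test over all genes.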

How the data were processed

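RNA of sorted CD4-CD8+ TCRβhigh T cells (3 WT mice, 3 BIT mice) was made into libraries with a stranded total RNA kit after removal of ribosomal RNA, 1 for each mouse. Groups and replicate numbers were taken from the sample labels. The authors trimmed and aligned the paired-end reads and deposited estimated counts per gene, which RSEM need not leave whole, without normalization, on GRCm39 with the Gencode M38 annotation. The submitters' processing notes name cutadapt 1.18, STAR 2.7.0f and RSEM 1.3.1. The strand setting is not given in the sources used here. Positions, transcript lengths and sequences come from the GRCm39 release Gencode M39. Of the 78275 identifiers in the table, 78263 were found there, and 78224 had an unchanged symbol.

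The estimated counts were rounded, filtered with filterByExpr of edgeR 4.0.16 and fitted with limma 3.58.1 in R 4.3.3 (voom with quantile normalization, lmFit and eBayes), the normalization and algorithm of the study's methods. Benjamini-Hochberg adjustment ran over all 16105 genes tested, and genes were called at an adjusted p below 0.05. Counts per 1000000 (CPM) were computed from unrounded counts and library totals from 37467678 to 52922675, and only differences relative to the other genes of a library can be seen.

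The members and lists were chosen with earlier results of these data known. By rule, the genes named are the members, Psmb8, Psmb11, Bambi, Slc28a1 and Slc29a4, the nearest tested neighbour on each side, B2m, the 6 neighbours with the largest absolute differences and any that were called, the 3 highest per length in each group of the nucleoside list with its 3 largest rises and falls, and the 5 genes with the most alike profiles. The comparison was repeated with DESeq2 1.42.0 and with the quasi-likelihood test of edgeR, and within limma-voom with TMM normalization, other filters, quality weights, a block for the replicate number, each library left out, a window of 1000 kb, and the paralogues added up. Leaving out both replicate 3 libraries and a term for replicate 3 were chosen after seeing the data. The labels say that each group holds individual mice.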

Additional observations from a re-analysis of the deposited data

How the results depend on the processing

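The number of genes called over all genes tested, 22, was 14 with edgeR and 125 with DESeq2, between 15 and 32 with TMM normalization, other filters or sample quality weights, and with 1 library left out it was lowest, at 1, without WT replicate 1 and highest, at 37, without WT replicate 3. It was 71 with both replicate 3 libraries left out and 42 with a term for replicate 3, both chosen after seeing the data. The cause of these shifts was not tested. Called neighbours, unlinked transporters and genes of the nucleoside list remained at 0 in each alternative run.

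The log2 difference of Slc28a2b was between -1.69 (without BIT replicate 3) and -0.94 (without WT replicate 3) with 1 library left out, and moved to -0.51 when Slc28a2 and Slc28a2b were added up, a sum in which Slc28a2 holds most of the counts. That of Bambi-ps1 was between -1.28 and -1.15 with 1 library left out and -1.02 when added to Bambi. The differences of Slc28a2 ranged from -0.25 to -0.12. The difference of Slc29a1 had the other sign without WT replicate 2, WT replicate 3 or BIT replicate 1 (range -0.031 to 0.10 with 1 library left out) and that of Slc29a3 without BIT replicate 2 (range -0.19 to 0.043), with adjusted p of at least 0.618 for both in these fits.

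WT and BIT libraries share replicate numbers, but the labels do not say that a number marks a shared litter or day. Deviations from the group means correlated, across genes, at 0.139, 0.0255 and 0.332 for replicates 1, 2 and 3, and WT replicate 2 and BIT replicates 1 and 2 correlated better with a library of another number, so the numbers were not taken to pair the mice. With the replicate number as a block, 21 genes were called and the log2 difference was -1.45 for Slc28a2b, -0.20 for Slc28a2 and -1.20 for Bambi-ps1. The chromosome 2 genes were chosen on this comparison, so nothing is read from which fits called them. Slc28a2b was called with the block (21 genes in all), without both replicate 3 libraries (71) and with the term for replicate 3 (42). Bambi-ps1 was called with that term, DESeq2 (125) or sample quality weights (32). Leaving out both replicate 3 libraries and the term for replicate 3 were chosen after seeing the data. Neither gene was called in the main fit, with edgeR, TMM normalization or other filters, or with 1 library left out.

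Depth limits Slc28a3, Slc28a1 and Slc29a4, which were at or below 3 counts in each library, and the neighbours with few counts.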
